A study of Mus musculus with 6 samples.

Results

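Tight junctions and desmosomes are the 2 kinds of cell contact described here, through 54 protein-coding genes matched by gene name out of the 49548 genes in the table. The set was drawn up with earlier results of these data known. The 54 genes are 23 claudins, 5 MARVEL and JAM membrane proteins (Ocln, Marveld1, Marveld2, Marveld3 and F11r), 5 tight junction plaque proteins (among them Tjp1, Tjp3, Cgn and Cgnl1), 9 desmosomal cadherins, 8 desmosomal plaque proteins (Dsp, Jup, Pkp1, Pkp2, Pkp3, Pkp4, Ppl and Evpl), the Crumbs genes Crb1, Crb2 and Crb3, and Epcam. The measurements are 3′ mRNA sequencing of cancer-associated fibroblasts (CAFs), the mesenchymal cells of a tumor. The CAFs were sorted from colonic adenomas that azoxymethane and dextran sodium sulfate (AOM/DSS) had induced in adult C57/BL6 mice. All mice carried Col6a1-cre and the Rosa26-mTmG reporter, in which Cre switches a cell and its descendants from Tomato to GFP. GFP+ cells, called Col6a1+ CAFs, and Tomato+ cells, called Col6a1− CAFs, gave 3 libraries each, and cells with CD45, EpCAM, CD31 or Ter119 on their surface had been removed before both sorts. The Col6a1Cre driver marks mainly PDGFRa-high fibroblasts and perivascular cells of the intestine, and the Tomato+ gate holds every lineage-negative cell in which it was not active.

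Tight junctions seal the space between neighbouring epithelial or endothelial cells. Claudins, occludin and related 4-pass membrane proteins form the strands, and plaque proteins such as ZO-1 (Tjp1), ZO-3 (Tjp3) and cingulin (Cgn) tie them to actin. Desmosomes are rivet-like contacts in which desmogleins and desmocollins span the gap between cells, and plakoglobin, plakophilins and desmoplakin anchor them to keratin filaments. Intact desmosomes and claudin-based strands are typical of the colonic epithelium and not of fibroblasts, and Epcam, the surface antigen used here to remove epithelial cells, also binds claudins in that epithelium.

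Levels are given as normalized counts, that is, reads of a gene in a library after the authors' normalization between libraries. They were compared between the CAF subsets gene by gene but not between genes. Differences are in log2(normalized count + 1), Col6a1+ minus Col6a1− CAFs, with the standard error (SE). They were tested with limma over the 26402 genes whose counts in the 6 libraries summed to 1 or more, and a gene was called at a Benjamini-Hochberg adjusted p under 0.05. The libraries held between 3039152 and 3425249 normalized counts. The first Col6a1+ library stood apart in the number of genes detected, 14530 against 18770 to 20511 in the others. Each sample came from tumors pooled over several mice, so that p-values measure the spread between such pools and not between single animals.

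Most junction genes that were expressed had lower levels in Col6a1+ CAFs. Of the 54 genes, 8 had no count in any library and 46 were tested, and 13 of these were called lower and 1, Marveld1, was called higher. Over all genes tested, 1.96% were called lower and 2.66% higher. The median difference of the 46 was −1.99, beside −0.27 over all genes tested. On average 10 normalized counts or more were reached by 30 junction genes, and all 14 calls lay among them. In 27 of these 30 the difference was negative and in 3 it was positive, with a median of −2.20 beside −0.15 for all 13515 genes at that level, of which 56.4% were negative and 3.67% and 5.15% were called lower and higher. The 3 Col6a1+ libraries lay below all 3 Col6a1− libraries for 24 of the 54 genes and above them for 1, against 11.6% and 7.91% of all genes tested.

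**Figure D1:**
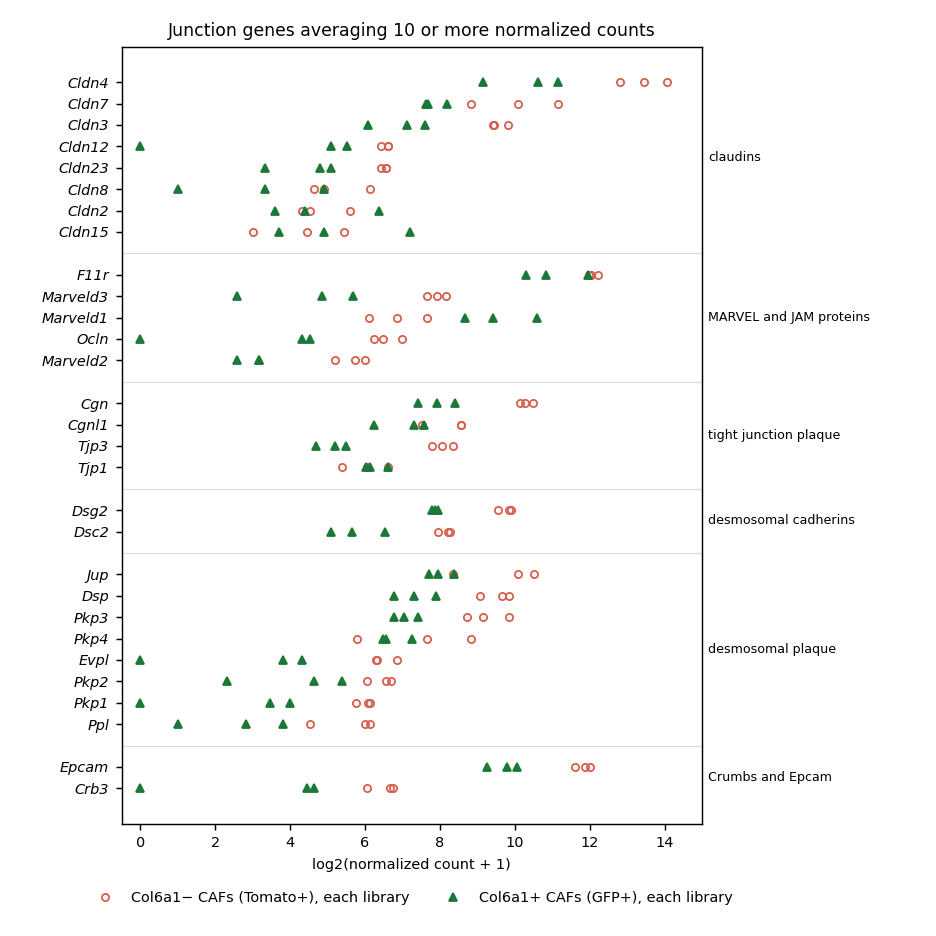
Level of 29 of the 30 junction genes averaging 10 or more normalized counts in each of the 6 libraries, as log2(normalized count + 1), grouped by role. Filled triangles are the 3 libraries of Col6a1+ CAFs and open circles the 3 of Col6a1− CAFs. Triangles lie to the left of all circles for most genes, to the right for Marveld1, and among them for Cldn2, Cldn8, Cldn15, Cgnl1, Tjp1, Jup and Pkp4.

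These calls depended on how the spread was estimated and on each library. Deviations of libraries with the same replicate number correlated weakly, at 0.125 to 0.245. The second Col6a1+ and the third Col6a1− library reached 0.150, so that these values do not establish a pairing by number. Once the number entered the fit as a block, none of the junction genes was called, higher or lower, nor was any other gene. At an unadjusted p under 0.05, 2567 of all genes were lower and 1851 higher in that fit. The blocked adjusted p of the 13 genes called lower was 0.0612 to 0.120 (limma) and that of Marveld1 was 0.0835. The smallest adjusted p of any gene in that fit was 0.0612, a value that the pericyte marker Rgs5 also had. A blocked fit of only the 13515 genes averaging 10 or more, a setting chosen after the data were seen, called 21 junction genes lower and 1 higher, beside 6.44% and 7.26% of those genes. With any of the 3 Col6a1+ libraries or the first Col6a1− library left out, no gene at all was called, junction genes included. Without the second Col6a1− library 166 of all genes were called lower and 98 higher, and without the third 125 and 63, and in each the single junction gene among them was Dsg2, called lower. In these 6 fits 1968 to 2639 of all genes were lower and 1460 to 2434 higher at an unadjusted p under 0.05. The differences of the 13 genes kept their sign in each of these fits.

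The libraries of Col6a1− CAFs also carried more of the epithelial transcripts that are not junction genes. All 18 epithelial markers of a list, among them Cdh1, Krt18, Muc2 and Lgals4, had negative differences, with a median of −2.06. Of them 9 were called lower and none higher, beside 1.96% and 2.66% of all genes tested. The 18 markers summed to 6108, 8669 and 9201 normalized counts in Col6a1+ and 21782, 40359 and 28286 in Col6a1− CAFs. Cdh1, which is also an adherens junction gene, supplied 2999, 2344 and 2580 of these counts in Col6a1+ and 10493, 15452 and 11963 in Col6a1− CAFs. Of the 18, 16 were detected in all 6 libraries, and Slc26a3 and Agr2 were at 0 only in the first Col6a1+ library. None was at 0 throughout the Col6a1+ libraries. The sums did not overlap. These markers were thus detected in both sorts, from which EpCAM+ cells had been gated out. Which cells made the transcripts was not tested. In bulk libraries, fewer cells of a type and less RNA per cell cannot be told apart, and the part of this list in the differences of the junction genes was not tested.

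The 54 junction genes together summed to 9379, 7702 and 6627 normalized counts in the libraries of Col6a1+ CAFs, a mean of 7903 ± 1387 (SD, n = 3). In those of Col6a1− CAFs the sums were 21771, 31276 and 34851, a mean of 29299 ± 6760 (SD, n = 3). Every Col6a1− library thus held more junction mRNA than any Col6a1+ library. Per 1000 counts of the epithelial markers of the same library, the sums were 1536, 888 and 720 in Col6a1+ and 999, 775 and 1232 in Col6a1− CAFs, and these ratios overlapped. Endothelial and immune markers were also lower in sum in all 3 Col6a1+ libraries. The 9 endothelial markers summed to 192 to 439 in Col6a1+ and 477 to 597 in Col6a1− CAFs, with 8 of 9 differences negative and a median of −1.84. None was called lower, and the exception, Tie1, was called higher in Col6a1+ CAFs. Only 3 of the 9 endothelial markers were detected in the first Col6a1+ library, so that the size of these differences rested partly on it. Without that library, Vwf, Pecam1, Egfl7 and Sox17 differed by −0.42, −0.47, −1.52 and −2.48. Tek and Emcn then had positive differences, 0.31 and 0.91. The 9 immune markers summed to 52 to 81 against 448 to 845, with 7 of 9 differences negative and a median of −2.19. S100a8 and S100a9, the neutrophil calprotectin genes, were called lower and supplied most of the Col6a1− sums. Their counts there were 211, 387 and 167 for S100a8 and 229, 391 and 162 for S100a9. Ptprc (CD45) had 0, 2 and 0 against 7, 8 and 3, and Cd3e was at 0 in all libraries but 1 of Col6a1− CAFs. No erythroid, enteric glial or mesothelial marker was called. Fibroblast and pericyte markers were on the other side, with sums of 39511 to 44080 against 7155 to 14622 and of 35204 to 50779 against 423 to 896, and called higher were 5 of 8 and 5 of 5 of them, besides 4 of 5 smooth muscle markers. Of all genes tested, 2.66% were called higher and 1.96% lower.

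**Figure D2:**
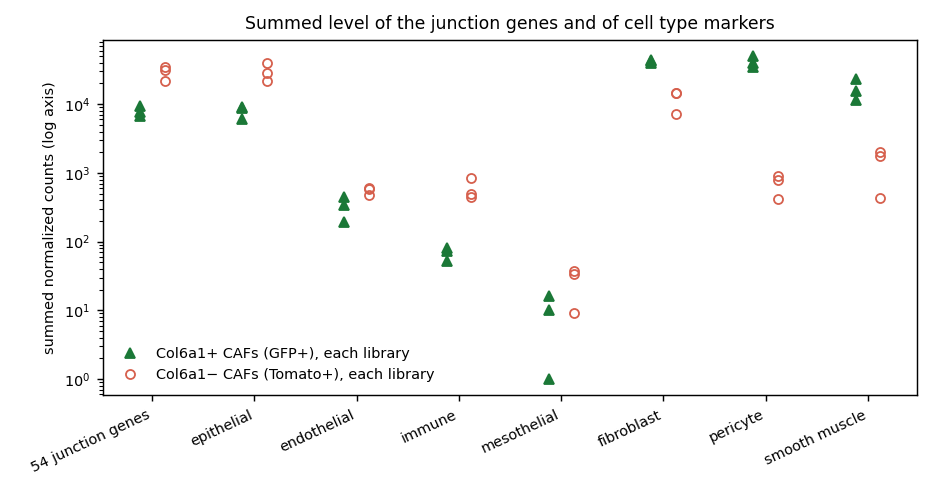
Summed normalized counts per library, on a log axis, of the 54 junction genes and of marker lists of 7 cell types. Triangles are Col6a1+ and open circles Col6a1− libraries. The sums of the junction genes and of the epithelial, endothelial and immune markers are lower in all 3 Col6a1+ libraries, those of the mesothelial markers overlap, and those of the fibroblast, pericyte and smooth muscle markers are higher in all 3.

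The claudins fell into a few abundant members and many that were barely detected. Of the 23, 5 had no count (Cldn16, Cldn17, Cldn19, Cldn22 and Cldn24) and 18 were tested, and 8 averaged 10 or more. Cldn4 and Cldn3, neighbouring genes on chromosome 5, and Cldn7 were called lower in Col6a1+ CAFs, and no claudin was called higher. The median over the 18 was −1.57.

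Cldn4 encodes a sealing claudin of the intestinal surface. Its normalized counts were 571, 2270 and 1575 in the 3 libraries of Col6a1+ CAFs and 7226, 11157 and 17117 in those of Col6a1− CAFs, and the groups were far apart. The difference was −3.13 (SE 0.50, adjusted p = 0.0064, 0.0612 with the block). The gene lies on the minus strand at chr5:134945119-134946934 (mm10). Cldn3, at chr5:134986214-134987472 on the plus strand, had 66, 195 and 137 against 685, 900 and 693 normalized counts, with no overlap. It differed by −2.63 (SE 0.40, adjusted p = 0.0054, 0.0612 with the block). Cldn7 (chr11:69964779-69967885), which partners with Epcam at the lateral membrane, had 198, 289 and 206 against 451, 2297 and 1079, so that the Col6a1− libraries differed among themselves by more than the nearest values of the groups did. Its difference was −2.18 (SE 0.50, adjusted p = 0.0352, 0.101 with the block).

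The other 5 claudins at this level were not called. Cldn23 had 9, 27 and 33 normalized counts in Col6a1+ and 93, 85 and 94 in Col6a1− CAFs, and Cldn12 had 0, 45 and 33 against 85, 96 and 96. In both the groups did not overlap, with adjusted p of 0.0659 and 0.239. Cldn8, a barrier-forming claudin of the distal colon, was at 29, 9 and 1 against 29, 69 and 24. Cldn2, which forms a cation pore, was at 82, 11 and 20 against 47, 22 and 19, and Cldn15, another cation pore, at 147, 12 and 29 against 7, 42 and 21. These last 3 genes overlapped between the subsets, and the first Col6a1+ library held the highest value of Cldn2 and Cldn15. Among the low claudins, Cldn5, the main endothelial claudin, had 0, 0 and 5 against 5, 24 and 19 normalized counts, and Cldn18 had none in Col6a1+ CAFs and 2, 4 and 4 in Col6a1− CAFs. No claudin below a mean of 10 was called or exceeded 24 counts in a library.

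The promoters of 3 genes called lower are shown because they hold the 2 short motifs searched. The first is the Snail/ZEB E-box, CAGGTG on either strand, the element to which the repressors of the Snail and ZEB families bind. The second is the Grainyhead motif, AACNNGTT, which reads the same on both strands and is bound by the Grhl activators of epithelial genes. The matches are in capitals, and each sequence is the 250 bases before the annotated start, from RefSeq on GRCm38.p6, 5′ to 3′ on the strand of the gene. The windows are chr17:87635729-87635978 (plus strand) for Epcam, chr5:134946935-134947184 (minus strand) for Cldn4 and chr3:94786483-94786732 (minus strand) for Cgn.
Epcam: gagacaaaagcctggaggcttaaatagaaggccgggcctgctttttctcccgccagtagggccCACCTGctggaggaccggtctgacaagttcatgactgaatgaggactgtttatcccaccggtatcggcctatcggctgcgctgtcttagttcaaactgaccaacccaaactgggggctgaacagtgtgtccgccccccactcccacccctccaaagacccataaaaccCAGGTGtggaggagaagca
Cldn4: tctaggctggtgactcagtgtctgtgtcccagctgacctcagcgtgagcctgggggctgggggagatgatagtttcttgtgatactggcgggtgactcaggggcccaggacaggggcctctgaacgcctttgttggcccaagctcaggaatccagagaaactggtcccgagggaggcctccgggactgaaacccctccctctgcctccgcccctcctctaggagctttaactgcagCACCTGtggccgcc
Cgn: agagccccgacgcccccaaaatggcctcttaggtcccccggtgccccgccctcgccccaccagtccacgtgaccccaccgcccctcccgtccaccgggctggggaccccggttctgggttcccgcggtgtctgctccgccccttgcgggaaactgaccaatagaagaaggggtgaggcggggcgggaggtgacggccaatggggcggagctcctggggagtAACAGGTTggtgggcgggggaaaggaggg

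The Epcam window held the E-box at 187 and at 19 bases before the start, the Cldn4 window at 14 bases, and the Cgn window held the Grainyhead motif at 29 bases. A RefSeq window was matched for 34 of the 54 genes, with 47 windows in all. The E-box was in 12 of the 47 (25.5%), which belong to 10 genes, and in 17.2% of the 32851 mouse promoter windows of the same length. Of the 9 called genes with a window, 4 held it (Cldn4, Cldn7, Epcam and Tjp3). The Grainyhead motif was in 2 of the 47 (4.26%), those of Cgn and Cldn5, and in 3.64% of all windows, and it did not overlap an E-box in either. A match is a description of these letters and does not show that a factor binds there.

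Among the MARVEL and JAM proteins the members went in opposite directions. Marveld3, a MARVEL protein of the tight junction strand, had 5, 50 and 28 normalized counts in Col6a1+ and 200, 241 and 286 in Col6a1− CAFs. Marveld2 (tricellulin), which seals the corners where 3 cells meet, had 5, 8 and 8 against 63, 52 and 36. Neither gene overlapped between the subsets. Marveld3 differed by −3.54 (SE 0.69, adjusted p = 0.0173, 0.0951 with the block) and Marveld2 by −2.67 (SE 0.67, adjusted p = 0.0497, 0.120 with the block). Ocln (occludin) had 0, 22 and 19 against 75, 89 and 126 normalized counts, again without overlap, and its adjusted p was 0.0944. Without the first Col6a1+ library, in which Ocln was at 0, its difference went from −3.63 to −2.15. F11r (JAM-A) had 3961, 1258 and 1828 in Col6a1+ and 4742, 4191 and 4058 in Col6a1− CAFs, a difference of −1.05 (SE 0.39, adjusted p = 0.192). Its first Col6a1+ library lay just under the lowest Col6a1− library. The difference was −1.51 without that library and −0.68 without the second Col6a1+ library, and with array quality weights the gene was called lower (adjusted p = 0.0230).

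Marveld1, a MARVEL family member that is not confined to epithelia, was the single junction gene called higher in Col6a1+ CAFs. It had 1543, 682 and 410 normalized counts there, against 114, 202 and 68 in Col6a1− CAFs, and the groups did not overlap. The difference was 2.69 (SE 0.52, adjusted p = 0.0162, 0.0835 with the block, and 0.0047 with the block over genes averaging 10 or more). The first Col6a1+ library was the highest, and without it the difference was 2.18 (adjusted p = 0.119). The gene lies at chr19:42147400-42151703 on the plus strand.

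Of the tight junction plaque, Cgn and Tjp3 were called lower and Tjp1 and Cgnl1 were not called. Cgn (cingulin, chr3:94760069-94786492, minus strand) had 335, 171 and 242 normalized counts in Col6a1+ and 1128, 1229 and 1434 in Col6a1− CAFs. Tjp3 had 44, 36 and 25 against 326, 267 and 221. The groups were separate for both genes. Cgn differed by −2.38 (SE 0.31, adjusted p = 0.0025) and Tjp3 by −2.94 (SE 0.39, adjusted p = 0.0026), and both had 0.0612 with the block. Tjp3 overlaps Apba3 on the other strand, and whether reads were counted by strand is not given in the sources used here.

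Tjp1 (ZO-1), which is also found at adherens junctions of mesenchymal cells, had 97, 64 and 69 normalized counts in Col6a1+ and 41, 65 and 97 in Col6a1− CAFs. These values overlapped, and the difference was 0.24 (SE 0.46, adjusted p = 0.782). Cgnl1 (paracingulin) had 74, 189 and 158 against 182, 380 and 377, which overlapped, with a difference of −1.18 (SE 0.45, adjusted p = 0.199) that was −0.78 without the first Col6a1+ library. The blocked fit of genes averaging 10 or more called it lower (adjusted p = 0.0288).

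**Figure D3:**
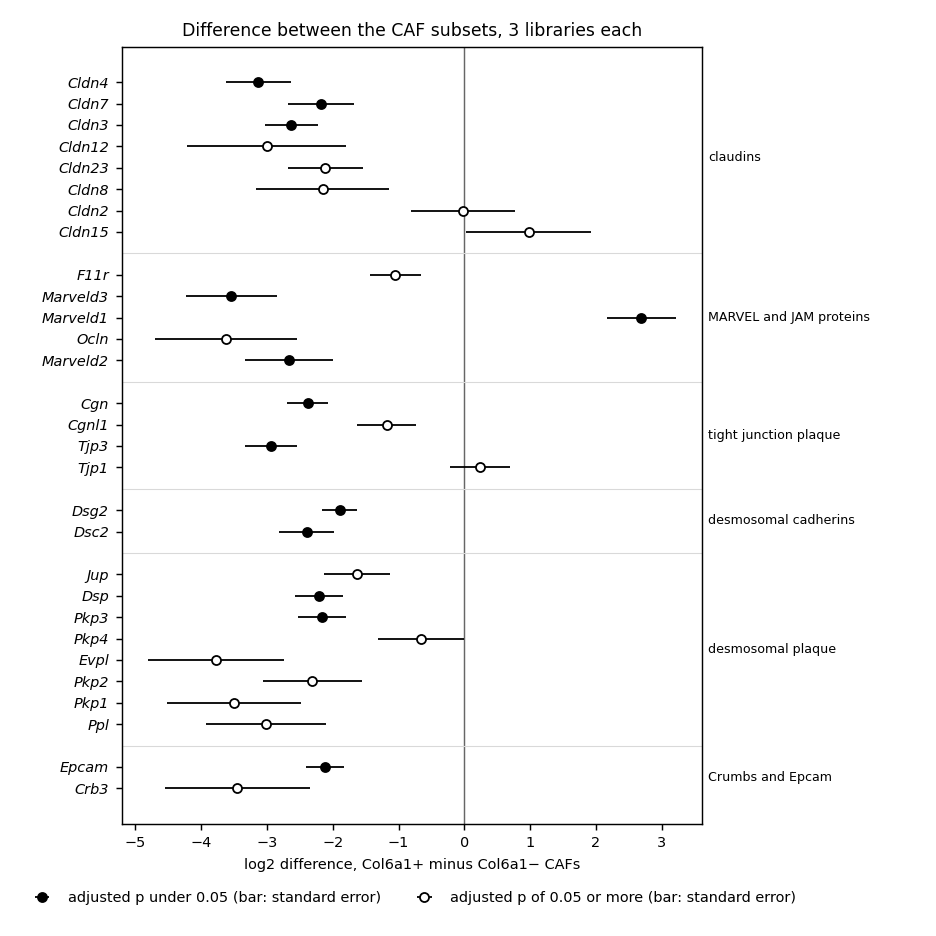
Difference in log2(normalized count + 1), Col6a1+ minus Col6a1− CAFs, of the same 29 junction genes. Points are the limma estimates from 3 libraries each, bars their standard errors, and filled points an adjusted p under 0.05. Filled points lie to the left of 0 for 12 genes and to the right for Marveld1.

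In the desmosome, 1 desmoglein and 1 desmocollin carried nearly all cadherin counts. Dsg2, the desmoglein of simple epithelia, had 245, 233 and 220 normalized counts in Col6a1+ and 744, 956 and 918 in Col6a1− CAFs. Dsc2, its desmocollin counterpart there, had 33, 92 and 49 against 248, 299 and 309. Each gene was lower in all 3 Col6a1+ libraries, Dsg2 with very similar values in them. Dsg2 differed by −1.90 (SE 0.27, adjusted p = 0.0039, 0.0612 with the block) and Dsc2 by −2.40 (SE 0.42, adjusted p = 0.0109, 0.0720 with the block). The other 7 cadherins had a mean under 10. Dsg1a and Dsg1b had no count, and Dsc3, a cadherin of stratified epithelia, had none in Col6a1+ CAFs and 1, 7 and 15 in Col6a1− CAFs. None of the 5 low cadherins tested was called.

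All 8 desmosomal plaque genes had negative differences, with a median of −2.26, and Dsp and Pkp3 were called. Dsp (desmoplakin), the link to keratin, had 108, 235 and 157 normalized counts in Col6a1+ and 539, 913 and 810 in Col6a1− CAFs. Pkp3 had 109, 171 and 130 against 421, 927 and 567. Neither overlapped. The differences were −2.21 (SE 0.36, adjusted p = 0.0077) for Dsp and −2.16 (SE 0.36, adjusted p = 0.0086) for Pkp3, each with 0.0612 under the block. Jup (plakoglobin), which desmosomes share with adherens junctions, had 210, 331 and 248 against 324, 1463 and 1088, and the lowest Col6a1− library lay within the Col6a1+ values. Its adjusted p was 0.104.

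The other 5 plaque genes were not called. Evpl (envoplakin) had 0, 13 and 19 against 77, 114 and 79 normalized counts, and Pkp1 had 0, 10 and 15 against 66, 69 and 53. Pkp2 had 4, 24 and 41 against 65, 93 and 102, and Ppl (periplakin) 13, 6 and 1 against 69, 22 and 63. These 4 genes did not overlap between the subsets, with adjusted p between 0.0703 and 0.131. Evpl and Pkp1 were at 0 in the first Col6a1+ library, and without it their differences went from −3.77 to −2.42 and from −3.50 to −2.25. Pkp4, a plakophilin relative that is also found at adherens junctions, had 151, 93 and 89 against 54, 202 and 455, which overlapped, and its adjusted p was 0.642.

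Epcam itself was measured in every library. It had 1074, 884 and 615 normalized counts in Col6a1+ CAFs, a mean of 858 ± 231 (SD, n = 3). In Col6a1− CAFs it had 3107, 4129 and 3730, a mean of 3655 ± 515 (SD, n = 3). The groups did not overlap, and the difference was −2.12 (SE 0.29, adjusted p = 0.0033, 0.0625 with the block). Both sorts had been negative for EpCAM protein at the surface. The gene is at chr17:87635979-87651106 on the plus strand. Crb3, the epithelial member of the Crumbs polarity proteins, had 0, 24 and 21 against 65, 101 and 106, without overlap (adjusted p = 0.119), and it overlaps Slc25a23 on the other strand. Crb1 had no count, and Crb2 had a single count in 1 library.

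For each of the 30 genes, normalized counts per 1000 counts of the 18 epithelial markers of the same library were compared between the subsets as a description, with no test. The epithelial sum was lower in Col6a1+ libraries, so that this scale raises every gene in them. Of all 13515 genes averaging 10 or more, 63.7% were higher in all 3 Col6a1+ libraries on it and 1.86% lower. Of the 22 genes with lower levels in every Col6a1+ library, 17 overlapped on this scale and 5 were still lower in every Col6a1+ library (Cldn4, Marveld2, Marveld3, Evpl and Pkp1). The nearest values were close for Cldn4 and for Marveld3, at 5.77 against 5.97. Evpl and Pkp1 include the value of 0 in the first Col6a1+ library. Epcam was at 176, 102 and 66.8 per 1000 in Col6a1+ and 143, 102 and 132 in Col6a1− CAFs, which overlapped, whereas Cldn4 was at 93.5, 262 and 171 against 332, 276 and 605.

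Of the 30 junction genes, 3 (Marveld1, Tjp1 and Cldn15) were among those higher in all 3 Col6a1+ libraries on this scale. Marveld1 was at 253, 78.7 and 44.6 per 1000 in Col6a1+ and 5.23, 5.01 and 2.40 in Col6a1− CAFs. Tjp1, whose normalized counts overlapped, was at 15.9, 7.38 and 7.50 against 1.88, 1.61 and 3.43. Cldn15 was at 24.1, 1.38 and 3.15 against 0.321, 1.04 and 0.742, and its nearest values lay close together.

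**Figure D4:**
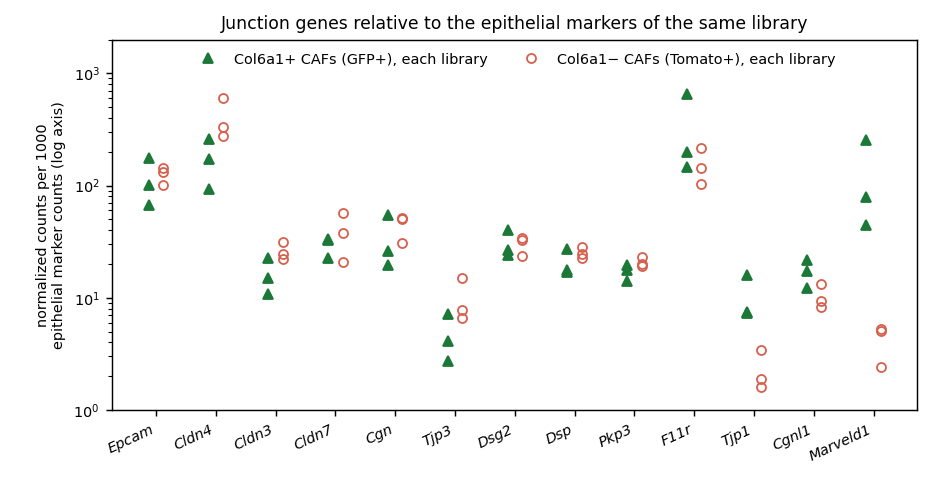
Normalized counts of 13 junction genes per 1000 normalized counts of 18 epithelial markers in the same library, on a log axis. Triangles are Col6a1+ and open circles Col6a1− libraries. The groups overlap for most genes, Cldn4 is lower in all 3 Col6a1+ libraries by a small gap, and Tjp1 and Marveld1 are higher in all 3, as were 63.7% of all genes averaging 10 or more.

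The partners of these genes were taken from lists of the same pathways. Over all genes tested, 1.96% were called lower and 2.66% higher. Of 28 further tight junction genes tested, 4 were called lower (Lsr and Ildr1, the angulins of tricellular contacts, the adhesion receptor Cxadr, and Amot) and 3 higher (Esam and Jam3, junctional adhesion proteins of vessels and other cells, and Amotl2), with a median of −0.52. Lsr had 492, 658 and 475 normalized counts in Col6a1+ and 2981, 3665 and 3437 in Col6a1− CAFs, a difference of −2.64. Esam had 943, 971 and 1125 against 54, 93 and 38, a difference of 4.11. These lists thus held genes that were separate between the subsets in either direction.

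Of 17 adherens junction genes, Cdh1 (E-cadherin) and Ctnnb1 (β-catenin) were called lower and Cdh2 (N-cadherin) and Vcl (vinculin) higher, with a median of −0.69. Cdh1 had 2999, 2344 and 2580 normalized counts in Col6a1+ and 10493, 15452 and 11963 in Col6a1− CAFs, whereas Cdh2 had 125, 119 and 130 against 1, 9 and 6. The subsets thus differed in opposite directions in E-cadherin, by −2.25, and in N-cadherin, by 4.60. Among 10 genes of the keratin and desmosome list, Krt7, Krt8, Krt18, Krt19 and Krt23, keratins of simple epithelia, were called lower. Des (desmin), the intermediate filament of muscle, was called higher. The keratin Krt20 overlapped between the subsets, at 438, 453 and 1094 against 544, 1198 and 606, and was not called. St14 (matriptase) and its inhibitor Spint1 were called lower among 5 genes of the Epcam and protease list. Cdh1, Krt8, Krt18, Krt19 and Krt20 are also in the epithelial marker list.

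Of 15 regulators of junction genes, 3 were called lower (Esrp1, Elf3 and Ehf, factors of epithelial cells) and 3 higher (Snai1, Zeb1 and Zeb2, repressors of epithelial genes). The shares over all genes tested were 1.96% and 2.66%, and Elf3 is also in the epithelial marker list. Zeb2 had 229, 318 and 284 normalized counts in Col6a1+ and 26, 50 and 28 in Col6a1− CAFs, and Snai1 had 559, 256 and 417 against 118, 46 and 21. Neither overlapped, with differences of 3.01 and 2.98, and Zeb1 differed by 2.63. Of the Grainyhead factors, Grhl2 had 30, 24 and 3 against 114, 102 and 121, with a difference of −2.95 (SE 0.75, adjusted p = 0.0521). Grhl1 had 17, 18 and 20 against 48, 9 and 26, which overlapped, with a difference of −0.29, and Grhl3 was not called.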

How the data were processed

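RNA of 3 libraries of Col6a1+ (GFP+) and 3 of Col6a1− (Tomato+) CAFs was sequenced from the 3′ end. The authors mapped reads with TopHat2 and Bowtie2 to mm10, counted them per gene and compared the groups with DESeq through the metaseqR package. The paper does not name the normalization. The deposited table holds the log2 of the normalized count plus 1 per library, on whole normalized counts (100% of values within 1e-06), not raw counts. A further 6 columns of per-sample values, and the columns of the authors' own comparison (p-values, false discovery rates and fold changes), were not used.

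The design, which allowed for raw counts, named limma on log2 values for this case. With limma 3.58.1 in R 4.3.3, the groups were compared in the 26402 genes whose normalized counts summed to 1 or more (eBayes with trend, pseudocount of 1, Benjamini-Hochberg adjustment). The code was tested on simulated data. Summaries used Python 3.11.15, pandas 2.3.3 and NumPy 2.4.6, and figures Matplotlib 3.10.9. Same-numbered libraries were treated as pairs in the block. The correlations of their deviations from the group means were 0.245, 0.125 and 0.144 over 13515 genes. For other pairs they were −0.245 to 0.150, so that they do not establish the pairing. Each sample was a pool of tumors of several mice, and the paper gives 3 samples in total. The labels do not state whether a number marks a shared pool.

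The genes were chosen by name, and the members and lists were chosen with earlier results of these data known. Genes averaging 10 or more normalized counts are named with all values, others by group, except that 1 gene enters the counts but its values are not reported here, and except where a few are singled out after their values were seen. Coordinates are those of the table (mm10). All 54 gene identifiers are in GENCODE M21 and overlap its coordinates. Promoters came from RefSeq (GRCm38.p6), where a window was matched for 34 genes. Where a library shows 0 for a gene, a level of up to 3 counts is compatible with it, by counting error only. Depth in reads is not given by the table, and the normalized counts of the libraries summed to 3039152 to 3425249.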

Additional observations from a re-analysis of the deposited data

How the results depend on the processing

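The count of junction genes called lower in Col6a1+ CAFs (13) and the 1 called higher stayed within 1.5 times under scaling by library size alone, a mean of at least 10, at least 10 in every library, a pseudocount of 0.1, limma-voom, array quality weights and protein-coding genes only, with 11 to 18 lower and 1 higher. Of all genes, these settings called 336 to 969 lower and 561 to 1031 higher, with 9473 to 26402 genes tested. The fit that gave the 13 called 517 lower and 703 higher of 26402. The 18 came with array quality weights, where 969 of 26402 genes were lower. Under an unadjusted p below 0.05 with an absolute log2 difference over 1, 27 were lower, as were 8.61% of all genes tested (6.09% were higher). With no filter on low counts, 0 were lower and 0 higher, in a fit that called only 7 of all 49548 genes lower and 21 higher. With the replicate block, which pairs the libraries by number, 0 were lower and 0 higher, and no other gene was called. In those settings 2058 genes were lower and 1736 higher at an unadjusted p under 0.05 with no filter, and 2567 and 1851 with the block. The replicate block over genes with a mean of at least 10, added after seeing the data, gave 21 lower and 1 higher, beside 6.44% and 7.26% of those genes. Leaving out 1 library at a time gave 0 to 1 lower and 0 higher, in fits with fewer samples, of which 4 called no gene at all and the other two 166 and 125 of all genes lower. The median difference of the tested genes was negative throughout, from −2.20 to −1.43. Among the genes averaging 10 or more, those whose difference changed sign without 1 library were Cldn2 (−0.82 to 0.57), Tjp1 (−0.074 to 0.54) and Pkp4 (−1.48 to 0.041), and among the lower ones Cldn1 (−1.13 to 0.82) and Cldn11 (−0.97 to 0.53), and none of these was called. The cause was not tested for the other changes. With 3 libraries a group, and a mean under 10 normalized counts in 24 of the 54 genes, small differences of low genes were not detectable.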
